A study of Mus musculus with 12 samples.

Results

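Progression on the HFCF diet was followed in mouse liver by setting 3 livers taken after 3 months on the diet against 3 taken after 1 month. These are 6 of the 12 small RNA libraries of a study of steatohepatitis (fatty liver with inflammation) in mice, and they were chosen by the diet and time in their labels. HFCF-fed mice were 6 months old after 3 months on the diet and 3 months old after 1 month, so age and time on the diet moved together and cannot be told apart within this comparison. The other 6 libraries, 3 each from mice given normal chow over 3 months or 1 month at the same ages, show what age and time did without the diet. All mice were male C57BL/6, the sample names mark them as WT, and HFCF is not spelled out in the labels. Each library is 1 of 3 biological replicates per group, and whole liver tissue was used.

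The HFCF libraries held between 3738183 and 5255906 counts, within a span of 2539388 to 5255906 over all 12. Of 3717 genes listed, 2511 had enough counts to test, and they fell into 228 miRNA loci, 254 snoRNAs and scaRNAs, 1750 protein-coding genes, 24 mitochondrial genes and 102 others. A further 153 long genes share sequence with a small RNA gene and may hold its reads, so they were kept apart. Protein-coding genes were seen as short fragments, with a median of 9 counts per gene and library, against 104.5 for miRNA loci and 209 for snoRNAs. All 8 hepatocyte markers listed were in the table and summed to between 1103 and 1135 CPM (counts scaled to a library of 1000000) in the 3-month HFCF livers, against 1113 to 1330 CPM in the 1-month HFCF livers. On the first principal component of all genes tested, which carried 24.4% of the variance, the 3-month HFCF libraries stood at 10.1, 19.2 and 16.8, and the 1-month HFCF libraries at -5.04, 1.47 and -1.34.

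A miRNA is a short RNA that guides the Argonaute protein to messenger RNAs, mostly by pairing through its seed, bases 2 to 8 from the 5′ end, and the bound messages are repressed. Small nucleolar RNAs (snoRNAs) guide chemical modification of ribosomal RNA, the C/D box kind methylation and the H/ACA kind pseudouridylation, and scaRNAs do the same for spliceosomal RNA in Cajal bodies. In fatty liver disease, fat builds up in hepatocytes and leukocytes enter the tissue; miR-155 and miR-223 are known mainly from leukocytes, whereas miR-802 and miR-107 have been studied in hepatocytes in obesity and insulin resistance. Fragments of messenger RNA in a small RNA library are breakdown products as well as traces of expression, and the counts do not tell more message from more breakage.

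The mature miRNAs on which the comparison turned are shown with the seed in capitals, as RefSeq gives them on build GRCm38.p6. The counts are per hairpin locus and do not separate its arms, so the arm shown is the one usually more abundant, and for miR-582 both are shown. The first group holds miRNAs of loci that were higher at 3 months, beginning with the 3 members of the miR-183 cluster, whose seeds are alike but not the same.
miR-183-5p: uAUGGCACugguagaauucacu
miR-96-5p: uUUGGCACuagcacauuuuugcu
miR-182-5p: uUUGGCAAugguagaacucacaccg
miR-155-5p: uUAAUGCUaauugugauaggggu
miR-223-3p: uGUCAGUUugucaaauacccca
miR-342-3p: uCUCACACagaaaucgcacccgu
miR-205-5p: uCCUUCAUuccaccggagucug
miR-582-5p: aUACAGUUguucaaccaguuac
miR-582-3p: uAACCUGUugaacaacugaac
miR-149-5p: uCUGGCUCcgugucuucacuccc
miR-802-5p: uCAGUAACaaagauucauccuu
miR-34a-5p: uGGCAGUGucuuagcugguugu
The next 6 are 3 pairs that share a seed, shown because members of a pair can pair with the same seed sites.
miR-181b-5p: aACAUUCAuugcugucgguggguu
miR-181d-5p: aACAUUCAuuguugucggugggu
miR-222-3p: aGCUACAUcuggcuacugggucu
miR-221-3p: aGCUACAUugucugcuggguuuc
miR-103-3p: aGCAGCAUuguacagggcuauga
miR-107-3p: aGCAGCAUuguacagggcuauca
The last pair belongs to the loci that were lower at 3 months, both from the imprinted Dlk1-Dio3 region of chromosome 12.
miR-411-5p: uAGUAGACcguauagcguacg
miR-541-5p: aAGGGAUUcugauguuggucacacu

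Between 3 months and 1 month on the HFCF diet, 68 of 2511 genes passed the test (2.71%; edgeR's quasi-likelihood test, Benjamini-Hochberg adjusted p under 0.05), 40 higher (1.59%) and 28 lower (1.12%). The 2 directions were split by class of RNA: 21 of 228 miRNA loci rose (9.21%) and 2 fell (0.877%), 9 of 1750 protein-coding fragments rose (0.514%) and 24 fell (1.37%), and 1 of 254 snoRNAs rose. The share of a class that passed was thus 10.1% of miRNA loci, 1.89% of protein-coding fragments and 0.394% of snoRNAs. In 65 of the 68 the 2 groups did not overlap, against 17.5% of all genes tested. Another 6 calls were small RNAs of other kinds, and 5 were long genes that hold a small RNA, such as F630028O10Rik with Mir223. In the plot of fold change against level, the miRNA calls are mostly red and the protein-coding calls mostly blue.

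**Figure D1:**
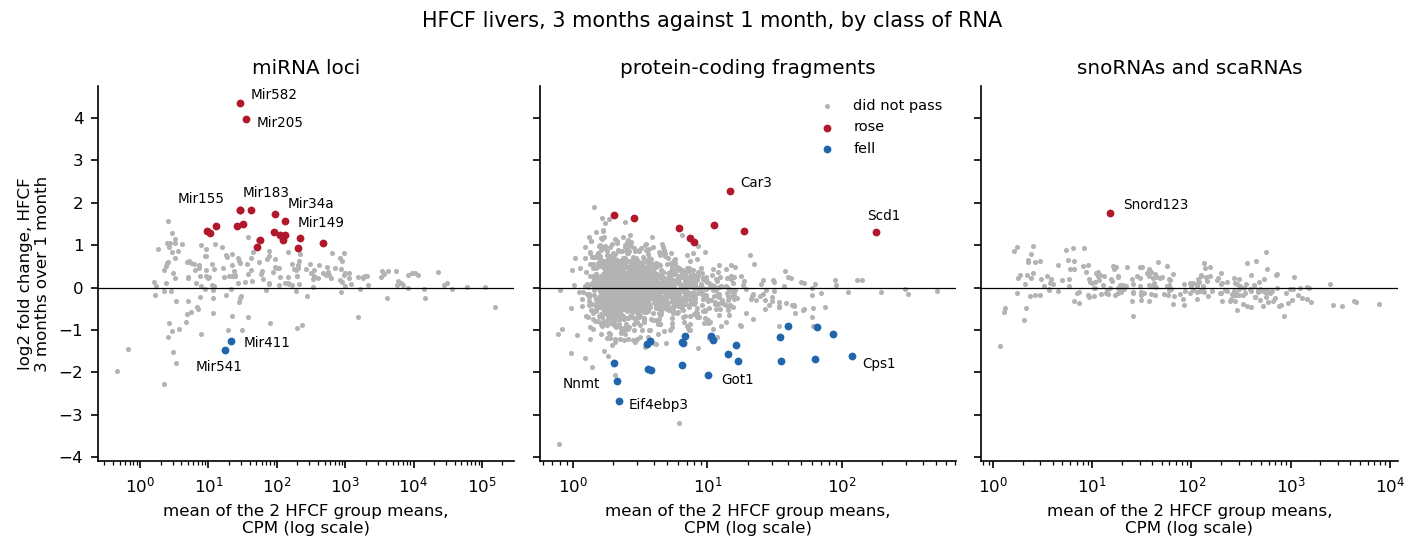
Log2 fold change in HFCF livers, 3 months over 1 month (y axis), against mean level in CPM on a log scale (x axis), for miRNA loci, protein-coding fragments and snoRNAs with scaRNAs. Each point is 1 gene; red points rose and blue points fell at an adjusted p under 0.05, 21 and 2 among miRNA loci, 9 and 24 among protein-coding fragments, and 1 and 0 among snoRNAs.

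The split between the directions depends on what the libraries are scaled to. The median log2 fold change was 0.31 over miRNA loci, against -0.01 over protein-coding fragments and 0.03 over snoRNAs and over all genes. Fitted alone and scaled to their own sum, miRNA loci had a median of 0.02, and 20 rose and 17 fell, 37 of 228 in all (16.2%). Scaling all genes by the miRNA loci moved the median of all genes to -0.28, and then 10 genes rose and 58 fell, 7 miRNA loci (7.46% of 228 with the 10 that fell) among those that rose. Protein-coding fragments fitted alone gave 14 higher and 41 lower of the 1556 then tested (3.53%). Scaled to table totals, 24 genes rose and 11 fell. No gene among the 68 changed direction under any of these. The number of calls also rested on single libraries: it was 29 without replicate 2 and 28 without replicate 3 of the 3-month HFCF group, 33 without replicate 1 of the 1-month HFCF group and 105 without replicate 1 of the 1-month chow group.

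The miR-183 cluster rose as a whole, all 3 of its loci, which lie on the minus strand within chr6:30165918-30169737 of mm10 and are known from sensory cells and from lipid metabolism in liver. Over all miRNA loci 9.21% rose. Mir183 stood at 29.8, 91.3 and 77.7 CPM in the 3-month HFCF livers, against 23.6, 16.2 and 16.2 CPM in the 1-month HFCF livers. Every 3-month liver was above every 1-month liver, with a log2 fold change of 1.83 ± 0.31 (SE; adjusted p = 0.000432). Mir96 stood at 12.8, 26.5 and 17.5 CPM in 3-month HFCF livers, against 8.52, 5.07 and 7.03 CPM in 1-month HFCF livers (log2 fold change 1.45 ± 0.31, adjusted p = 0.00424). Mir182 stood at 74.2, 167 and 147 CPM in 3-month HFCF livers, against 65.4, 43.2 and 47.0 CPM in 1-month HFCF livers (1.32 ± 0.28, adjusted p = 0.00424). The groups did not overlap for either locus. In chow livers Mir183 was at 60.3, 81.6 and 79.9 CPM after 3 months and at 58.7, 78.7 and 67.1 CPM after 1 month, so its 3-month HFCF range overlapped that of chow and all 3 of the 1-month HFCF livers lay below all 6 chow livers. Mir182 had the same order, with chow livers between 131 and 209 CPM. Mir183 passed under all 24 alternatives, and was the only one of the 3 to pass with scaling by miRNA loci; Mir96 and Mir182 did not pass without 3-month HFCF replicate 2, and Mir182 also not without replicate 3.

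Of 7 leukocyte miRNA entries tested, 4 rose and none fell, against 9.21% of all miRNA loci that rose. The 7 entries had a median log2 fold change of 1.13 in HFCF livers, against 0.31 over all miRNA loci. With scaling by miRNA loci 2 rose, both of them Mir155, and the median was 0.81. The 4 entries are 3 miRNAs, because Mir155 is listed under 2 identifiers with the same counts. Mir155, which is induced in activated macrophages and lymphocytes, stood at 23.6, 73.4 and 40.3 CPM in 3-month HFCF livers, against 11, 17.1 and 10.2 CPM in 1-month HFCF livers (log2 fold change 1.84 ± 0.35, adjusted p = 0.00335). Mir342 stood at 122, 272 and 166 CPM in 3-month HFCF livers, against 82.5, 105 and 47.5 CPM in 1-month HFCF livers (1.25 ± 0.29, adjusted p = 0.0118). Mir223, the myeloid miRNA of neutrophils and macrophages, stood at 48.9, 108 and 78.6 CPM in 3-month HFCF livers, against 35.1, 46.6 and 26.6 CPM in 1-month HFCF livers (1.13 ± 0.29, adjusted p = 0.0227). The 2 groups did not overlap for any of the 3. The other leukocyte miRNAs did not pass: Mir142 had a log2 fold change of 0.31 (adjusted p = 0.758), Mir150 0.25 (0.824) and Mir511 -0.21 (0.839). Calls of Mir342 and Mir223 were lost without 3-month HFCF replicate 2 and without 1-month HFCF replicates 1 and 3, and that of Mir223 also without 3-month HFCF replicate 3; Mir155 passed throughout.

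Protein-coding markers of the same cells were scarce. Of 4 leukocyte markers, only Cd74 was in the table, and it overlaps a miRNA gene; of 8 macrophage markers, Clec4f, Csf1r, Cd5l and Lyz2 were there. These 4 summed to 14 to 37 counts per library, or 3.51 to 7.69 CPM, in 3-month HFCF livers, against 16 to 33 counts, or 2.68 to 7.96 CPM, in 1-month HFCF livers. The ranges overlapped. Clec4f, a marker of resident Kupffer cells, was at 0 in 2 of the 3-month HFCF libraries, and its log2 fold change of -3.69 did not pass (adjusted p = 0.0944). Cd5l, the other macrophage marker with enough counts to test, had the opposite sign, at 0.23, and did not pass either. Cd74, the invariant chain of MHC class II, stood at 1.5, 3.31 and 4.16 CPM in 3-month HFCF livers, against 0.752, 0.965 and 0.669 CPM in 1-month HFCF livers (1.92 ± 0.54, adjusted p = 0.0407). It lost its call without any one of 5 of the 6 HFCF libraries. In whole tissue, more cells of a type and more of an RNA per cell cannot be told apart, and the part of leukocyte number in these miRNA values was not tested.

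The 2 largest fold changes of any miRNA belonged to loci that were at most 5.02 CPM in every 1-month HFCF liver. Mir582, in an intron of Pde4d on the plus strand at chr13:109324744-109324824, stood at 11, 86.1 and 69.4 CPM in 3-month HFCF livers, against 3.51, 3.14 and 1.67 CPM in 1-month HFCF livers. Its log2 fold change was 4.35 ± 0.70 (adjusted p = 0.00732), and replicate 1 was far below the other 3-month livers while still above all 1-month livers. Mir205, an epithelial miRNA on the minus strand at chr1:193507463-193507530 in an exon of 4631405K08Rik, stood at 21.8, 118 and 60.1 CPM in 3-month HFCF livers, against 2.76, 4.59 and 5.02 CPM in 1-month HFCF livers (3.98 ± 0.50, adjusted p = 0.000305). Chow livers held at most 1.86 CPM of Mir582 and 4.79 CPM of Mir205 at either time. Both loci passed under all 24 alternatives. Among biliary markers, Sox9 and Spp1 summed to 6 to 15 counts per library, or 1.5 to 4.14 CPM, in 3-month HFCF livers. In 1-month HFCF livers they summed to 5 to 8 counts, or 0.836 to 1.93 CPM. The ranges overlapped, and neither gene had enough counts to test. Krt19, Krt7 and Epcam were not among the genes listed.

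A list of miRNAs raised in fatty or fibrotic liver, chosen with earlier results of these data known, held 23 loci. They include the miR-183 cluster, Mir223 and Mir155, which counts as 2 of the 23 because it has 2 identifiers with the same counts. Their median log2 fold change was 1.05, against 0.31 over all miRNA loci. Of the 23, 11 rose and none fell, against 9.21% of all miRNA loci that rose. Fitted with miRNA loci alone, 11 of the 23 rose and 1, Mir21, fell. With all genes scaled by miRNA loci 4 of the 23 rose and 1 fell, and over every alternative between 3 and 18 rose. Mir34a, a p53 target, stood at 55.1, 237 and 144 CPM in 3-month HFCF livers, against 39.8, 67.3 and 24.4 CPM in 1-month HFCF livers; the groups overlapped, and the log2 fold change was 1.73 ± 0.43 (adjusted p = 0.0407). Mir132 overlapped too, at 19.5, 70.6 and 49.3 CPM in 3-month HFCF livers and 18, 23.2 and 8.53 CPM in 1-month HFCF livers (1.5 ± 0.39, adjusted p = 0.0404). Its cluster partner Mir212, with the same seed, had 1.03 (adjusted p = 0.113). Mir222 stood at 214, 316 and 279 CPM in 3-month HFCF livers, against 118, 184 and 122 CPM in 1-month HFCF livers (0.93 ± 0.25, adjusted p = 0.0343), and Mir221, which shares its seed and its transcript, had 0.71 (adjusted p = 0.092). Mir21, widely raised in fibrosis, had -0.45 (adjusted p = 0.504) with overlapping groups. Mir34a, Mir132 and Mir222 each lost the call when replicate 2 or 3 of the 3-month HFCF group, or replicate 1 or 3 of the 1-month HFCF group, was left out, and also without some of the chow libraries.

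Loci that share a seed fell on both sides of the threshold, and differences between members of a family were not tested. Over all miRNA loci 9.21% rose. In the miR-181 family, which shares the seed ACAUUCA, Mir181d stood at 21.6, 56.0 and 37.4 CPM in 3-month HFCF livers, against 14.5, 18.3 and 9.03 CPM in 1-month HFCF livers (log2 fold change 1.46 ± 0.31, adjusted p = 0.00424). Mir181b-2 had 1.33 ± 0.29 (adjusted p = 0.00567), whereas Mir181a-1 at 0.92, Mir181c at 0.80 and Mir181a-2 at 0.04 did not pass. Of the 3 loci of the miR-103/107 family, known to lower insulin sensitivity in mice, Mir103-2 had 0.96 ± 0.24 (adjusted p = 0.0227), Mir103-1 1.02 (0.0555) and Mir107 0.83 (0.0504). In the miR-200 family of epithelial cells, Mir200b had 1.05 ± 0.28 (adjusted p = 0.0378) with overlapping groups, and Mir429, Mir200a, Mir141 and Mir200c did not pass. The Mir200b call did not hold with miRNA loci alone (adjusted p = 0.135), with table totals or with scaling by protein-coding fragments. It held in 4 of 12 fits that left out 1 library. It was lost without replicate 2 or 3 of either HFCF group, any 3-month chow library or replicate 3 of the 1-month chow group. Reads of Mir181b-2 and Mir103-2 cannot be told from those of a second copy with the same mature sequence. The same holds for Mir181a-1 and Mir181a-2, which share miR-181a-5p, so their values do not stand for 2 different miRNAs. The 2 miR-181 calls were lost without replicate 2 of the 3-month HFCF group, and none of the miR-181, miR-103/107 or miR-200 loci passed with scaling by miRNA loci. Mir103-2 lost its call without replicate 2 or 3 of the 3-month group or replicate 1 or 3 of the 1-month group.

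Among 12 hepatocyte miRNAs tested, 1 rose, against 9.21% of all miRNA loci. Mir802, a hepatocyte miRNA that is raised in obese mice, stood at 330.1, 326 and 241 CPM in 3-month HFCF livers, against 139, 135 and 121 CPM in 1-month HFCF livers (log2 fold change 1.18 ± 0.25, adjusted p = 0.00414). It passed in every fit that left out a library, but not with scaling by miRNA loci (adjusted p = 0.131). The remaining members lay between -0.24 and 0.83, and the median of all 12 was 0.03 with all genes in the fit and -0.25 with miRNA loci alone. In that fit of miRNA loci alone, 1 of the 12 rose and 3 fell, against 20 and 17 of all 228 miRNA loci. Mir149 stood at 149, 248 and 196 CPM in 3-month HFCF livers, against 54.6, 110.0 and 35.6 CPM in 1-month HFCF livers (1.57 ± 0.37, adjusted p = 0.0229), and was lost without replicate 2 or 3 of the 3-month group or replicate 1 of the 1-month group. Mir676 at 1.23, Mir335 at 1.11 and Mir1249 at 1.30 also rose; these 3 fall outside the rule for naming and are given after their values were seen, and all 3 lost the call without replicate 2 of the 3-month group and without replicate 1 of the 1-month group.

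**Figure D2:**
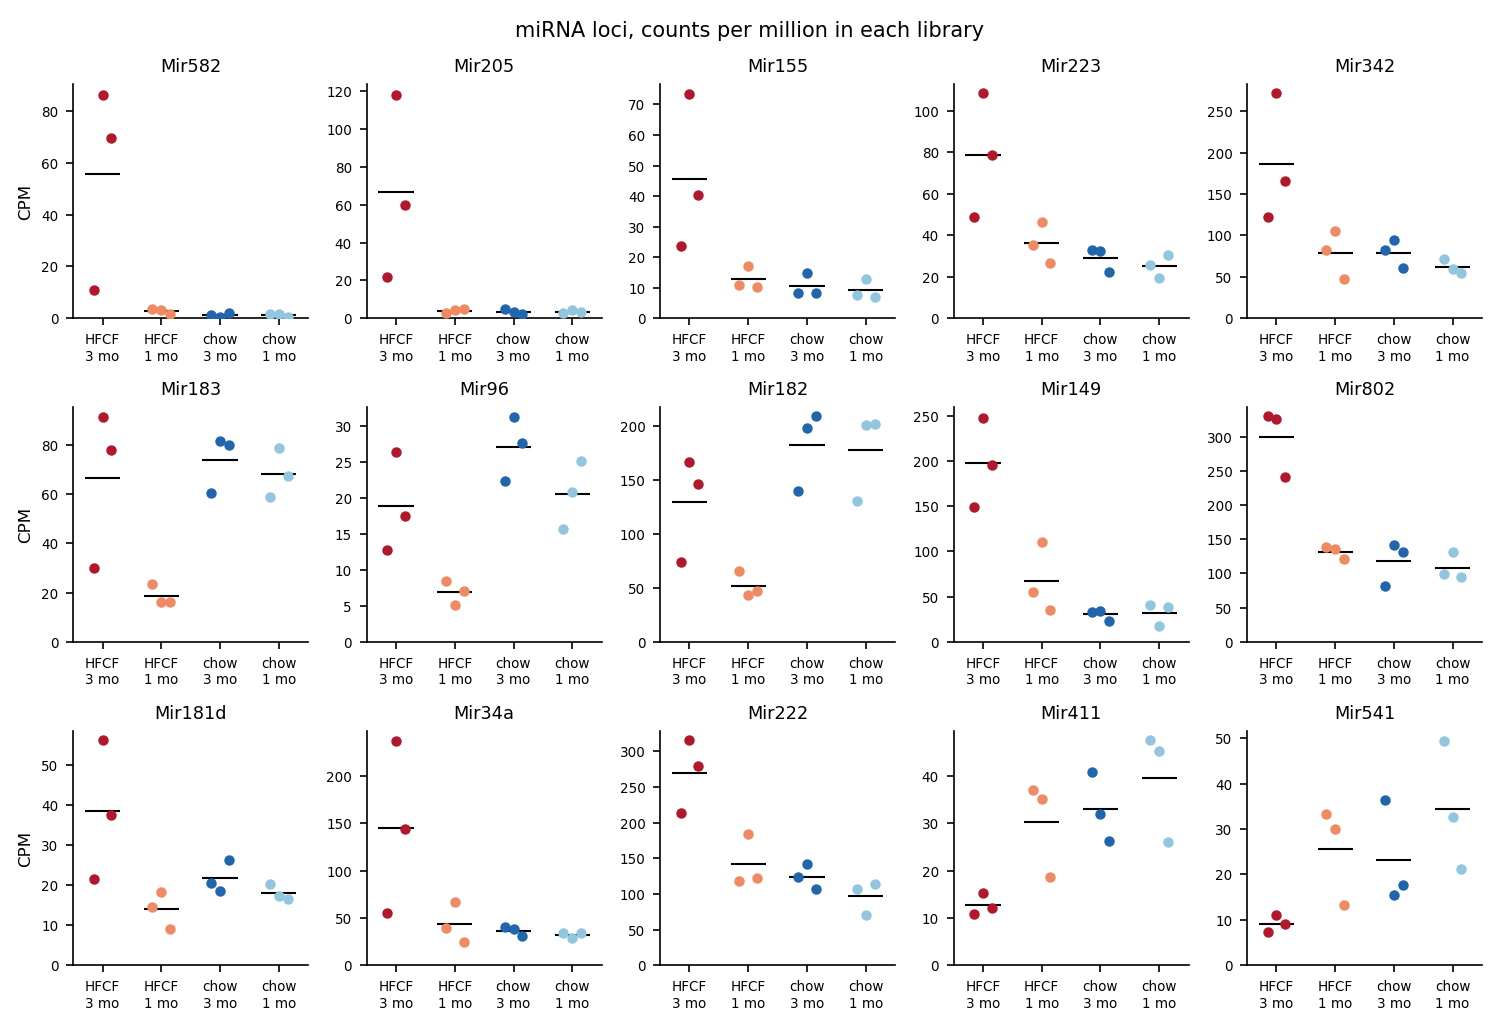
Level of 15 miRNA loci in CPM (y axes, linear and starting at 0) in each library of the HFCF 3-month, HFCF 1-month, chow 3-month and chow 1-month groups (x axes); points are single livers, 3 per group, and bars are means. Mir582 and Mir205 are low in every group except HFCF 3 months, whereas Mir183, Mir96 and Mir182 are low in HFCF 1 month, and Mir411 and Mir541 are low in HFCF 3 months.

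The 3-month HFCF libraries differed among themselves in a shared way. Of the 20 distinct miRNAs that rose, replicate 2 was highest of the 3 in 18 and replicate 1 lowest in 19. The share of counts in miRNA loci, over genes that do not overlap a small RNA gene, ran in the same order: 79.1% in replicate 1, 87.4% in replicate 2 and 82.0% in replicate 3. Shares in the 1-month HFCF livers were 84.1%, 85.8% and 77.9%, and the means, 82.8% ± 4.20 at 3 months and 82.6% ± 4.13 at 1 month (SD, n = 3 each), were apart by less than the spread between livers (exact permutation p = 1, two-sided; the smallest this design allows is 0.1). Without replicate 2, 8 miRNA loci passed; without replicate 3, 12; and without replicate 1, 40. Without replicate 1 of the 1-month group, 13 passed. The part of this library order in the miRNA calls was not tested.

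Loci of the Dlk1-Dio3 region, a cluster of imprinted miRNAs on chromosome 12 that is high in the embryo and low in adult liver, were mostly lower. Of 16 tested, 15 had a negative log2 fold change and 2 passed, both lower, against 0.877% of all miRNA loci that fell. The median of the 16 was -1.05, against 0.31 over all miRNA loci. Mir411 stood at 10.8, 15.2 and 12.1 CPM in 3-month HFCF livers, against 37.1, 35.2 and 18.7 CPM in 1-month HFCF livers (-1.25 ± 0.30, adjusted p = 0.0145). Mir541 stood at 7.27, 11 and 9.15 CPM in 3-month HFCF livers, against 33.3, 29.9 and 13.2 CPM in 1-month HFCF livers (-1.47 ± 0.38, adjusted p = 0.0378). Neither pair of groups overlapped, and the third 1-month liver was the lowest of its group for both. Mir376b at -1.77, Mir381 at -1.09, Mir379 at -0.99 and Mir134 at -2.26 did not pass with all genes in the fit and did with miRNA loci alone. In that fit of miRNA loci alone 7 of the 16 fell, against 17 of all 228 miRNA loci. All 16 were also below 0 in chow, where the median was -0.36 and none passed. Both calls were lost with table totals (adjusted p = 0.108 for Mir411 and 0.106 for Mir541), without 3-month HFCF replicate 3 and without 1-month HFCF replicate 1 or 2. The Mir541 call was also lost without 3-month HFCF replicate 1 or 2.

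Erythroid miRNAs had lower values in the 3-month HFCF livers but did not pass in the fit of all genes. Mir451 stood at 964, 1511 and 1064 CPM in 3-month HFCF livers, against 2120.2, 1945 and 1660.4 CPM in 1-month HFCF livers. Its log2 fold change was -0.69 (adjusted p = 0.3), and those of Mir144 and Mir486, also of red cells, were -0.95 (0.178) and -0.84 (0.169). The groups did not overlap for any of the 3, and with miRNA loci alone all 3 passed, with a median of -1.15. Of all 228 miRNA loci, 45 lay higher and 11 lower at 3 months without overlap. With miRNA loci alone 20 of the 228 rose and 17 fell. Hbb-b1, the erythroid marker tested, did not pass (log2 fold change 0.25) and had overlapping groups, at 2.76 to 3.74 CPM in 3-month HFCF livers and 2.17 to 2.84 CPM in 1-month HFCF livers. Another miRNA gene lies opposite Mir451 and another opposite Mir486, and without a stated strand setting their reads cannot be told apart. In the let-7, miR-29, miR-30 and miR-17/92 with miR-106b/25 lists, none of 30 loci tested passed with all genes in the fit, and at an unadjusted p under 0.05 there were 4, all let-7. Over all miRNA loci 77 of 228 had an unadjusted p under 0.05. With miRNA loci alone 2 of 6 miR-30 loci fell, and none of the other lists had a call.

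Among the 24 protein-coding fragments that fell were enzymes that liver uses to break down amino acids. Of 23 genes of the urea cycle and amino acid breakdown tested, 4 fell and none rose, against 1.37% of all protein-coding fragments that fell. In 21 of the 23 the log2 fold change was negative, and the median was -0.66, against -0.01 over all protein-coding fragments. Cps1, the first enzyme of the urea cycle, stood at 76.7, 51.6 and 47.0 CPM in 3-month HFCF livers, against 232, 135 and 168 CPM in 1-month HFCF livers (-1.61 ± 0.25, adjusted p = 0.000287). Got1, an aspartate aminotransferase, stood at 6.52, 2.48 and 2.70 CPM in 3-month HFCF livers, against 21.6, 12.1 and 15.6 CPM in 1-month HFCF livers (-2.07 ± 0.34, adjusted p = 0.000305). Tat, the first enzyme of tyrosine breakdown, stood at 14.8, 22.1 and 12.7 CPM in 3-month HFCF livers, against 77.9, 38.1 and 47.2 CPM in 1-month HFCF livers (-1.72 ± 0.29, adjusted p = 0.000344). Hal, which breaks down histidine, had -1.29 ± 0.35 (adjusted p = 0.0378). Groups did not overlap for any of the 4. The other urea cycle enzymes did not pass: Arg1 had -0.91 (adjusted p = 0.0695), Asl -0.91 (0.0798), Ass1 -1.16 (0.107) and Otc 0.21 (0.899). Cps1, Got1 and Tat passed under every alternative; Hal was lost without replicate 2 or 3 of the 3-month group or replicate 1 or 2 of the 1-month group.

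Methionine and one-carbon metabolism followed the same direction, with 3 of 13 genes lower, none higher, and a median of -0.71. Over all protein-coding fragments 1.37% fell and the median was -0.01. Cth, which makes cysteine from cystathionine, stood at 8.52, 8 and 6.86 CPM in 3-month HFCF livers, against 32.3, 21 and 23.9 CPM in 1-month HFCF livers (-1.72 ± 0.29, adjusted p = 0.000365). Mat1a, which makes the methyl donor S-adenosylmethionine in liver, stood at 64.7, 53 and 47.2 CPM in 3-month HFCF livers, against 156, 88.8 and 108 CPM in 1-month HFCF livers (-1.10 ± 0.26, adjusted p = 0.0132). Nnmt, which spends that donor on nicotinamide, stood at 0.501, 0.828 and 0.831 CPM in 3-month HFCF livers, against 5.51, 2.41 and 2.68 CPM in 1-month HFCF livers (-2.21 ± 0.47, adjusted p = 0.00424). The 3-month values of Nnmt rest on few reads. Mat1a was lost without replicate 2 or 3 of the 3-month group or replicate 1 of the 1-month group, and Nnmt without replicate 1 of the 1-month group. Bhmt, which remakes methionine from homocysteine, had -1.0 and missed the threshold (adjusted p = 0.0695).

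Among 19 genes of fatty acid oxidation and PPAR alpha targets, 3 fell and none rose, against 1.37% of all protein-coding fragments that fell. The median of the 19 was -0.37, against -0.01 over all protein-coding fragments. Cyp4a14, an omega-hydroxylase and PPAR alpha target, stood at 48.1, 22.6 and 19.1 CPM in 3-month HFCF livers, against 101, 79.4 and 106 CPM in 1-month HFCF livers (-1.68 ± 0.33, adjusted p = 0.00414). Cyp4a10 had -1.24 ± 0.31 (adjusted p = 0.0211), and reads of these neighbours may be shared between them. Ehhadh, of peroxisomal beta-oxidation, stood at 25.8, 17.7 and 20.2 CPM in 3-month HFCF livers, against 41.6, 56.2 and 45.3 CPM in 1-month HFCF livers (-1.17 ± 0.28, adjusted p = 0.015). Of mitochondrial oxidation genes, Cpt1a at -0.42 and Acadm at -0.04 did not pass. With libraries scaled to their table totals, none of the 3 passed; the Cyp4a10 and Ehhadh calls were also lost without replicate 2 or 3 of the 3-month group.

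Of fat synthesis and uptake, Scd1 and Cd36 rose. Scd1, which desaturates fatty acids, stood at 191, 219 and 357 CPM in 3-month HFCF livers, against 75.4, 72.2 and 161 CPM in 1-month HFCF livers (1.31 ± 0.30, adjusted p = 0.013). Cd36, a fatty acid transporter, stood at 6.77, 10.8 and 9.35 CPM in 3-month HFCF livers, against 2.005, 3.62 and 4.18 CPM in 1-month HFCF livers (1.41 ± 0.32, adjusted p = 0.00819). Scd1 was the single gene that rose among 12 of fatty acid synthesis and desaturation, against 0.514% of all protein-coding fragments that rose. In that list Fasn had 0.48 (adjusted p = 0.686) and Acly 0.13 (0.962). Lpin1, a phosphatidate phosphatase of the same list, fell: it stood at 0.501, 2.21 and 1.87 CPM in 3-month HFCF livers, against 7.02, 5.55 and 5.52 CPM in 1-month HFCF livers (-1.95 ± 0.39, adjusted p = 0.00304). These 3-month values rest on few reads. Over all protein-coding fragments 1.37% fell. Of the lipid droplet and uptake genes other than Cd36, Plin2 had 0.20 (adjusted p = 0.856). Neither Scd1 nor Cd36 passed with table totals (adjusted p = 0.163 and 0.0564) or with scaling by miRNA loci (0.25 and 0.154). Scd1 also lost the call without replicate 3 of the 3-month group or replicate 1 or 2 of the 1-month group, and Cd36 without replicate 2 or 3 of the 3-month group or replicate 1 of the 1-month group.

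Car3, a carbonic anhydrase abundant in fat and in male mouse liver, had the largest rise of any protein-coding fragment. It stood at 27.3, 24.8 and 21.8 CPM in 3-month HFCF livers, against 1.75, 5.55 and 7.36 CPM in 1-month HFCF livers (2.28 ± 0.34, adjusted p = 0.000243), and passed under every alternative. Dnmt3a, a DNA methyltransferase, stood at 9.77, 21 and 18.5 CPM in 3-month HFCF livers, against 9.02, 5.31 and 3.68 CPM in 1-month HFCF livers (1.48 ± 0.31, adjusted p = 0.00414). Cyp3a11, which metabolises drugs and bile acids, stood at 20.6, 25.4 and 34.5 CPM in 3-month HFCF livers, against 6.77, 6.52 and 17.7 CPM in 1-month HFCF livers (1.34 ± 0.32, adjusted p = 0.0145). Dnmt3a did not pass with scaling by miRNA loci (adjusted p = 0.0595), and Cyp3a11 passed neither with that (0.26) nor with table totals (0.163). All 6 chow livers held 23.2 to 36.8 CPM of it, above every 1-month HFCF liver. Arrdc3 at 1.18 and Actb, a cytoskeletal actin, at 1.09 also rose. Of glucose genes, Pck1 of gluconeogenesis stood at 52.1, 42.5 and 40.7 CPM in 3-month HFCF livers, against 95.7, 76.7 and 85.3 CPM in 1-month HFCF livers (-0.93 ± 0.24, adjusted p = 0.0268), and Gys2, the liver glycogen synthase, fell by 1.14 on the log2 scale (adjusted p = 0.0261). Igfbp1, a secreted binder of insulin-like growth factors that insulin represses, stood at 2.01, 2.48 and 3.95 CPM in 3-month HFCF livers, against 15.8, 5.55 and 9.37 CPM in 1-month HFCF livers (-1.82 ± 0.35, adjusted p = 0.00218). Igfbp1 passed under every alternative; Cyp3a11, Arrdc3, Actb, Pck1 and Gys2 each lost the call without replicate 3 of the 3-month group and without replicate 1 of the 1-month group, among others.

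**Figure D3:**
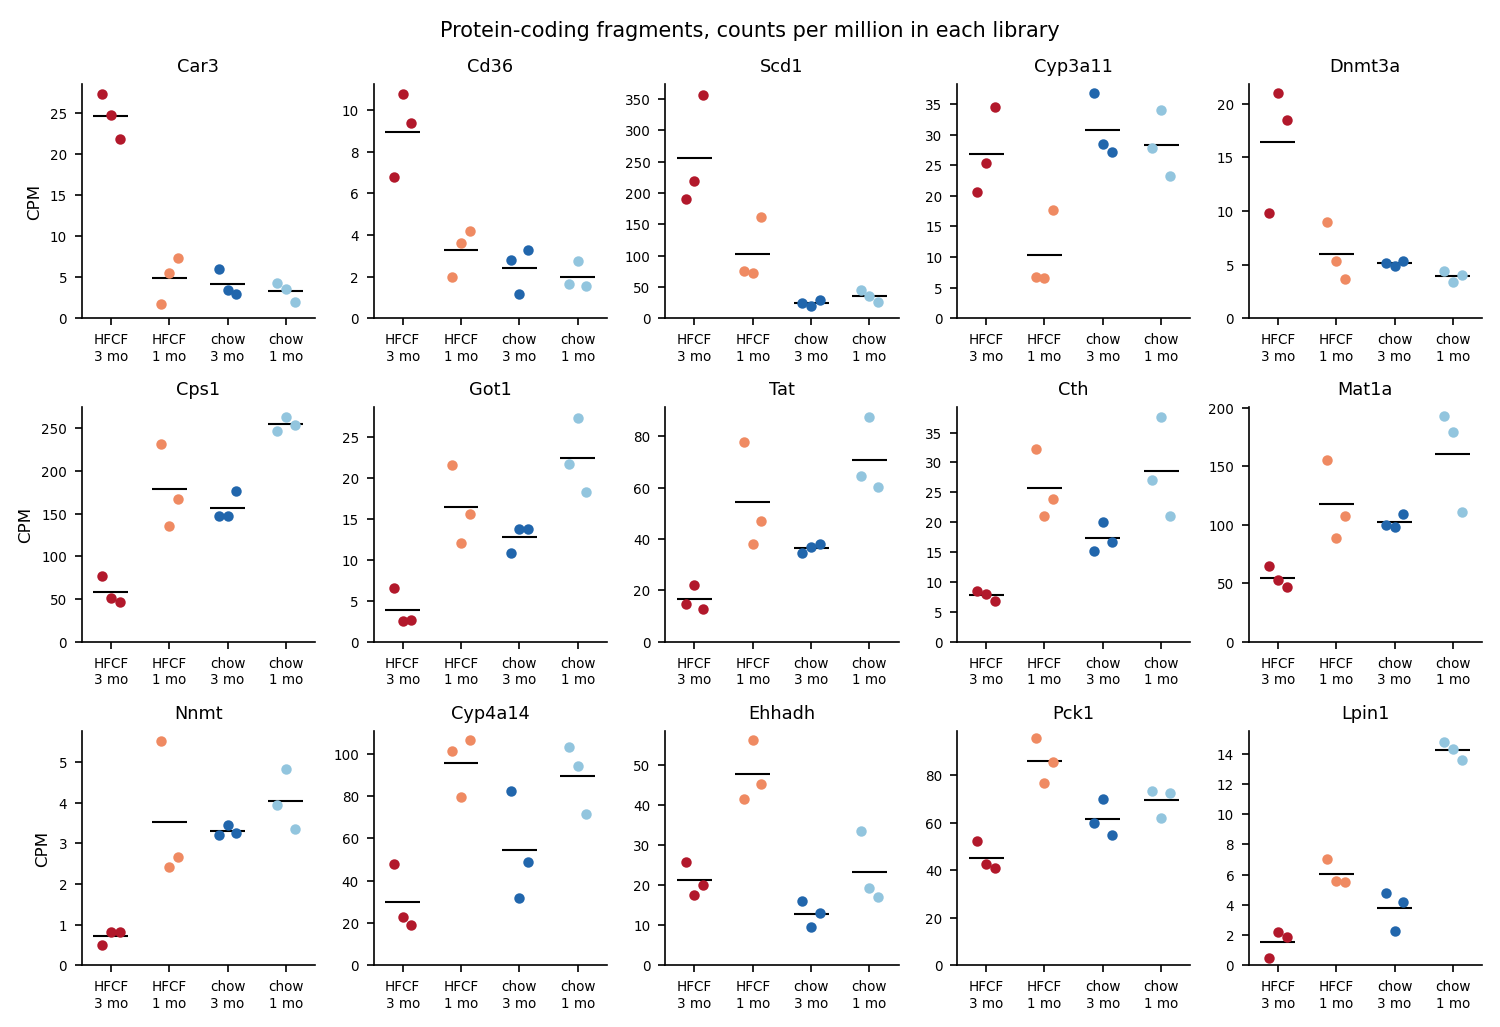
Level of 15 protein-coding fragments in CPM (y axes, linear and starting at 0) in each library of the HFCF 3-month, HFCF 1-month, chow 3-month and chow 1-month groups (x axes); points are single livers, 3 per group, and bars are means. Car3 is at 21.8 CPM or more in all 3 HFCF 3-month livers and under 8 CPM elsewhere, and Cps1, Got1, Tat, Cth and Nnmt are lowest in HFCF 3 months.

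Serpina1e, an antitrypsin, fell by 1.56, Gpcpd1, a glycerophosphocholine hydrolase, by 1.35 and Slco1a1, an organic anion uptake carrier, by 1.31 on the log2 scale. Among 8 acute phase genes tested none passed, 5 had an unadjusted p under 0.05, 7 were negative and the median was -0.67: Saa1 had -3.19 (adjusted p = 0.243), Itih3 -1.18 (0.0635) and Steap4, the positive one, 1.19 (0.0534). Among 32 plasma protein genes tested none passed and 4 had an unadjusted p under 0.05, with a median of -0.17, and Alb had -0.07 (adjusted p = 0.957). None of 15 bile acid genes rose and Slco1a1 alone fell. None of 24 mitochondrially encoded genes, 14 genes of oxidative stress defence or 11 of the unfolded protein response passed, and 1, 4 and 1 of them had an unadjusted p under 0.05. Over all 1750 protein-coding fragments 191 had an unadjusted p under 0.05, and at an adjusted p under 0.05, 0.514% rose and 1.37% fell. None of the 3 matrix genes tested passed or had an unadjusted p under 0.05, and Dcn, the stellate and fibroblast marker tested, had -0.51. Calls outside the rule for naming, given after their values were seen, were falls of Eif4ebp3, Aadat, Mup17, St3gal5, Pros1, Egfr and Errfi1 and rises of G3bp2 and Ddah1. Most of these rest on few reads, and Serpina1e and Mup17 belong to families of near-identical genes whose reads may be split among copies. Leaving out replicate 3 of the 3-month group ended the calls of Serpina1e and Slco1a1.

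Without single libraries the count of 33 protein-coding calls ran between 12 and 57. It was 16 without replicate 2 and 12 without replicate 3 of the 3-month HFCF group and 16 without replicate 1 of the 1-month HFCF group. It was 57 without replicate 1 and 52 without replicate 2 of the 1-month chow group, whose libraries also bear on the filter, the scaling and the shared estimate of spread. With table totals 12 passed, and the calls of Hal, Mat1a, Pck1, Gys2, Slco1a1 and Serpina1e were among those lost; Nnmt was lost with limma-voom (adjusted p = 0.108). The share of counts in protein-coding fragments was 1.61% ± 0.20 in 3-month HFCF livers and 1.68% ± 0.33 in 1-month HFCF livers (SD, n = 3 each; exact permutation p = 1).

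Of 254 snoRNAs and scaRNAs, Snord123 alone passed. It is a C/D box snoRNA on the minus strand of chr15:32241853-32241923 (mm10), in an intron of Snhg18, and its GENCODE sequence is printed with the C box letters TGATGA and the D box letters CTGA in capitals.
Snord123: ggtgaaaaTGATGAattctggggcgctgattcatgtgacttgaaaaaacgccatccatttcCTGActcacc
Of 254 snoRNA and scaRNA sequences searched on the transcript strand, 110 (43.3%) hold TGATGA followed by CTGA. Snord123 stood at 19.0, 22.3 and 29.3 CPM in 3-month HFCF livers, against 7.77, 5.55 and 7.53 CPM in 1-month HFCF livers. All 3-month livers were above all 1-month livers, with a log2 fold change of 1.76 ± 0.33 (adjusted p = 0.00162), and it passed under all 24 alternatives. The next smallest p-values were those of SNORD12 at -0.68 (adjusted p = 0.134) and AC115823.1 at -0.67 (0.232). The median was -0.04 over 129 C/D box snoRNAs (0.03 with table totals), 0.11 over 89 H/ACA snoRNAs (-0.17 with scaling by miRNA loci) and 0.09 over 15 scaRNAs, and at an unadjusted p under 0.05 there were 8 snoRNAs in all. The snoRNA share of counts was 10.003% ± 2.51 in 3-month HFCF livers and 10.8% ± 2.03 in 1-month HFCF livers (SD, n = 3 each; exact permutation p = 0.7).

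Among other small RNAs, named after their values were seen, the vault RNA gene stood at 46.1, 62.6 and 41.2 CPM in 3-month HFCF livers, against 12.8, 20.03 and 23.4 CPM in 1-month HFCF livers (1.40 ± 0.28, adjusted p = 0.00335). Vault RNA is part of a large cytoplasmic ribonucleoprotein. A Y RNA rose by 0.92 (adjusted p = 0.034), a U5 spliceosomal RNA gene by 1.12 (0.0439) and the long RNA B230208H11Rik by 1.09 (0.0343). Of 5S ribosomal RNA copies, n-R5s209 fell by 1.67 (adjusted p = 0.00414) and n-R5s25 by 0.95 (0.0445). Y RNA, U5 and 5S genes have many near-identical copies, so their reads are uncertain as to copy. The vault RNA call was lost with scaling by miRNA loci (adjusted p = 0.13) and without replicate 1 of the 1-month group, and those of the Y RNA, the U5 gene, B230208H11Rik and n-R5s25 without several single libraries.

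**Figure D4:**
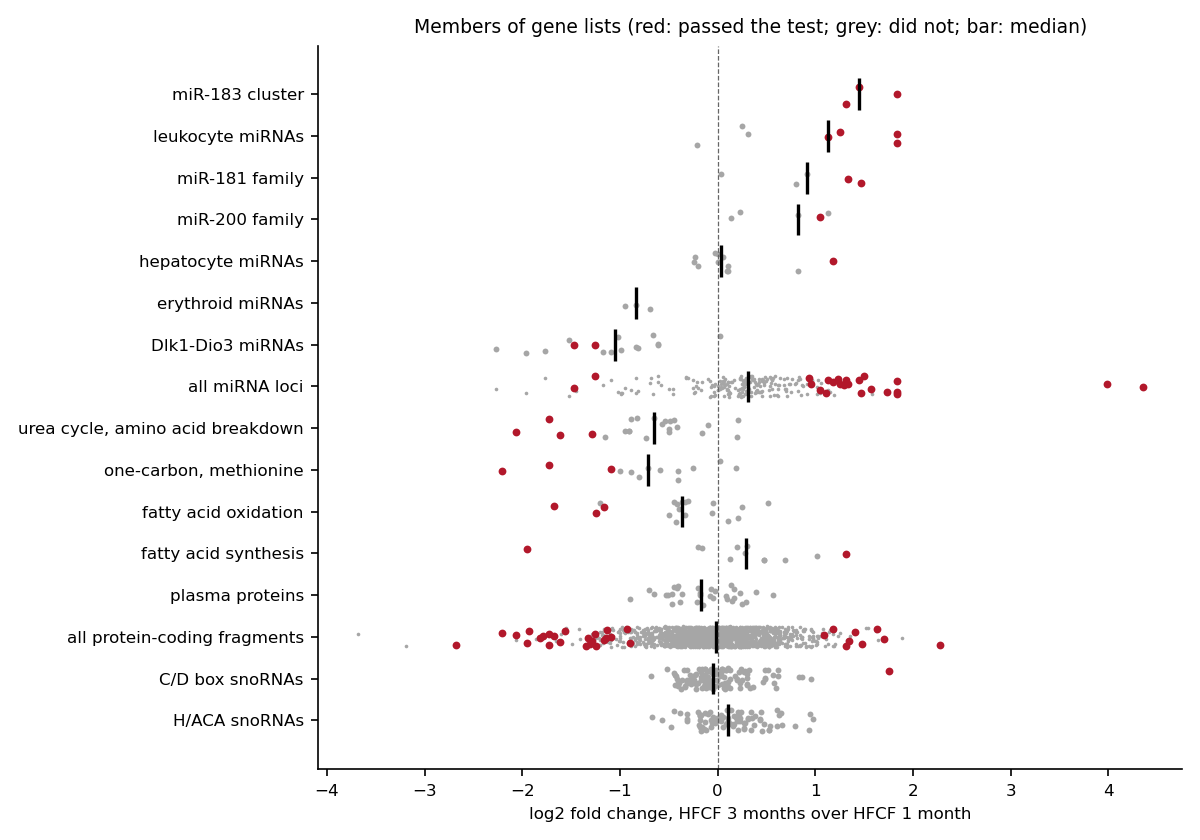
Log2 fold change in HFCF livers, 3 months over 1 month (x axis), of the members of 14 gene lists and of all miRNA loci and all protein-coding fragments (y axis). Red points passed the test, grey points did not, and black bars are medians, which run from 1.45 for the miR-183 cluster to -1.05 for the Dlk1-Dio3 miRNAs.

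The same contrast in chow livers, which shares no library with that in HFCF livers, gave 8 calls among 2511 genes (0.319%). Lpin1 fell there as well, to 4.79, 2.30 and 4.19 CPM after 3 months, against 14.8, 14.3 and 13.6 CPM after 1 month (-1.93 ± 0.32, adjusted p = 0.000829), and the difference between the diets was -0.02 (adjusted p = 0.986). Mir741, Mir881 and Fos rose in chow, and n-R5s76, Hddc2, Abhd2 and D17Wsu92e fell. Of the 68 genes called in HFCF livers, 56 had the same sign in chow, 18 of 23 miRNA loci and 30 of 33 protein-coding fragments among them. The share with the same sign over all genes tested was not worked out, so these counts are not read as a trait of the called genes. Over all miRNA loci the median was 0.31 in HFCF and 0.35 in chow livers. Over all protein-coding fragments it was -0.01 in HFCF and -0.13 in chow livers. Since the 68 were selected on the HFCF values, the sizes in the 2 diets are given as description. List medians in the 2 diets lay close together for some lists and apart for others, and these gaps were not tested. Close were the urea cycle and amino acid list, at -0.66 in HFCF livers and -0.67 in chow livers, the one-carbon list at -0.71 in HFCF and -0.66 in chow livers, the fatty acid oxidation list at -0.37 in HFCF and -0.43 in chow livers, and let-7 at 0.39 in HFCF and 0.38 in chow livers. Further apart were the acute phase list, at -0.67 in HFCF and -0.04 in chow livers, and fatty acid synthesis, at 0.29 in HFCF livers (-0.03 with scaling by miRNA loci) and -0.52 in chow livers. So were the miR-183 cluster, at 1.45 in HFCF and 0.12 in chow livers, and leukocyte miRNAs, at 1.13 in HFCF and 0.21 in chow livers. Both of these chow medians lay below the 0.35 of all miRNA loci in chow livers. The let-7 medians lay near those of all miRNA loci in both diets, and with miRNA loci alone let-7 had 0.09 in HFCF livers. Cps1 had -0.70 ± 0.25 in chow (adjusted p = 0.253), Tat -0.95 ± 0.28 (0.144) and Cyp4a10 -1.11 ± 0.31 (0.117). Car3 had 0.25 ± 0.41 (adjusted p = 0.862) and Scd1 -0.52 ± 0.32 (0.552).

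The difference between the 2 time effects was tested itself and passed for 2 genes (0.0796%). Snord123 had a time effect 2.30 ± 0.48 higher on the log2 scale in HFCF than in chow livers (adjusted p = 0.0396), and Mir741 one that was lower, by -2.98 ± 0.55 (adjusted p = 0.0116). The difference was 4.04 ± 0.77 for Mir205 (adjusted p = 0.0516), 4.40 ± 1.30 for Mir582 (0.396), 1.71 ± 0.43 for Mir183 (0.134), 1.64 ± 0.51 for Mir155 (0.385), 1.83 ± 0.44 for Scd1 (0.116) and 2.03 ± 0.53 for Car3 (0.21). For Cps1 it was -0.91 ± 0.35 (0.455). The Snord123 difference did not pass in 14 of 23 alternatives, limma-voom and the leaving out of any one of 8 libraries among them, with an adjusted p of up to 0.216. No other gene called in HFCF livers passed this test of the difference.

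**Figure D5:**
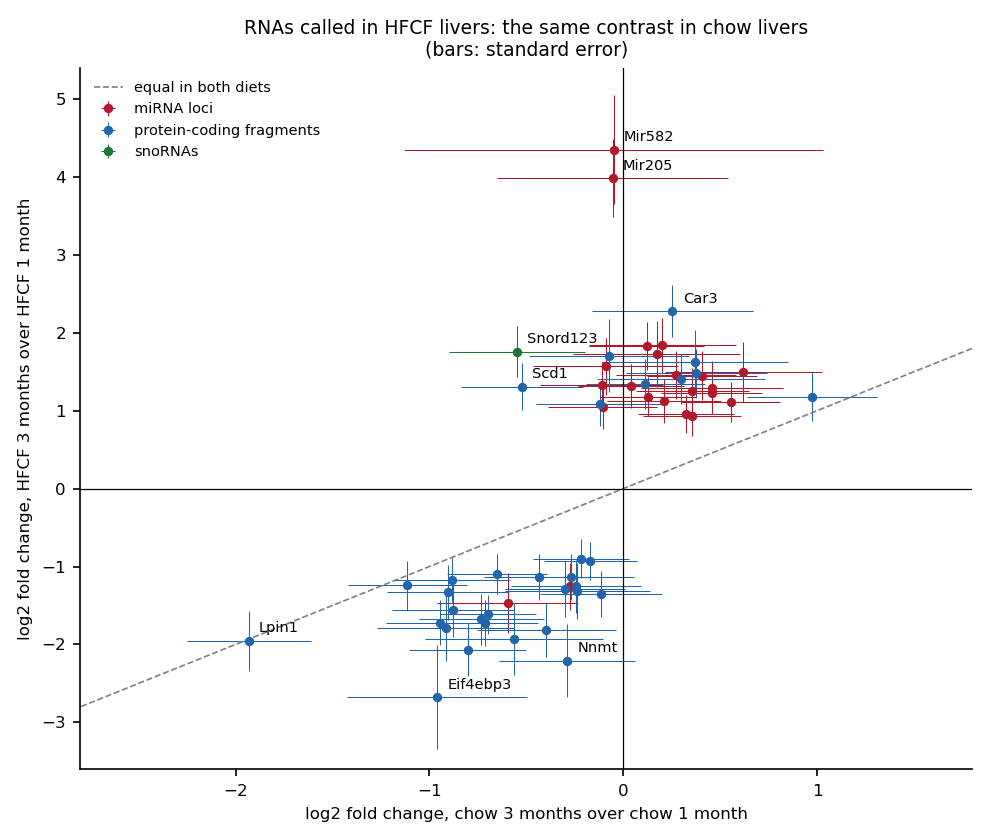
Log2 fold change of 3 months over 1 month in HFCF livers (y axis) against that in chow livers (x axis), for the miRNA loci, protein-coding fragments and snoRNA called in HFCF livers; bars are standard errors and the dashed line marks equal change. Lpin1 lies on the line, at -1.95 in HFCF and -1.93 in chow, and Mir582, Mir205 and Snord123 lie far above it.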

How the data were processed

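Small RNA was measured in 12 mouse livers, 3 in each of 4 groups. Per the file headers, the deposited table gives read counts, whole numbers, for each gene and library, with FPKM in further columns; the deposited FPKM served here only to work out the library size, of which the table total was 99.5% to 99.7%. The submitters' processing notes name build mm10. The sources used here name no aligner, counter or strand setting, and the labels' protocols and the design text name different library kits. Reads of overlapping genes were counted in each of them, so the table total counts some reads more than once. Every listed gene had 10 or more counts in at least 1 library.

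Genes were classed with GENCODE M21 (3617 matched by identifier, 26 by name). A long gene was set apart as overlapping where its exons hold a small RNA gene, or where such a gene took 20% or more of its count (191 genes, 3 of them by count). Counts were fitted with edgeR 4.0.16 (filterByExpr by group, TMM, robust quasi-likelihood test), with 12 libraries and 1 mean per group, and Benjamini-Hochberg adjustment ran over all 2511 genes tested; an adjusted p under 0.05 passed. Standard errors are the absolute log2 fold change over the square root of F, which is unreliable for changes near 0. CPM are TMM-scaled and relative to the table total. In data simulated for the HFCF comparison on 2511 genes, the test recovered 4.48% of 1.5-fold, 19.4% of 2-fold and 84.8% of 4-fold changes, with 3 false calls. Precision is limited by 3 livers per group and, for protein-coding fragments, by depth.

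The 55 gene lists and the members were chosen with earlier results of these data known. The genes named are, in either direction, at most 10 of the largest changes (5 for snoRNAs) among those of a class that passed, reached 10 CPM in 1 HFCF group and did not overlap between groups, and within each list every member that passed or, with fewer than 3, the smallest p-values up to 3. For 197 of 228 miRNA loci RefSeq gave a sequence. Alternatives were DESeq2 1.42.0, limma 3.58.1 (voom), other scalings and filters, each class alone, only the libraries compared, a replicate block and leaving out each library. No replicate pair agreed within sampling noise (chi-square per gene 11 to 124). Deviations of same-numbered HFCF libraries had correlations of -0.047, 0.21 and 0.092. For replicates 2 and 3 of the 3-month group these were the highest with any 1-month HFCF library. Whether the numbers pair livers is not settled, and the main fit did not treat them as pairs. With a replicate block 136 genes passed, all 68 of the main fit among them. Not analysed here were miR-199a, miR-146b and miR-122.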

Additional observations from a re-analysis of the deposited data

Results flagged for a closer look

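The time effect of Snord123 differed between the diets, by 2.30 ± 0.48 on the log2 scale (edgeR adjusted p = 0.0396). It was higher in all 3 of the HFCF livers at 3 months than in any at 1 month, while its chow levels were 4.40, 6.61 and 7.45 CPM after 3 months, against 3.94, 11.4 and 12.7 CPM after 1 month. The difference passed under 9 of 23 alternatives, and its adjusted p ran up to 0.216; the fits that left out any one of 8 libraries were among those that did not pass.

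The time effect of Mir741, of a testis-rich cluster on the X chromosome, differed the other way, by -2.98 ± 0.55 (adjusted p = 0.0116). In HFCF livers it stood at 3.51, 3.59 and 1.87 CPM after 3 months, against 2.51, 5.79 and 2.84 CPM after 1 month, and in chow livers at 5.99, 7.76 and 10.01 CPM after 3 months, against 0.657, 1.47 and 1.78 CPM after 1 month. The difference passed under 18 of 22 alternatives, with adjusted p up to 0.0929, and was lost with table totals and without HFCF 3-month replicate 3, HFCF 1-month replicate 2 or chow 3-month replicate 3.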

How the results depend on the processing

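Of the 68 genes called in HFCF livers, 15 passed under every alternative and none changed sign; 55 were kept by DESeq2 and 55 by limma-voom. The total was 35 with table totals and 136 with the replicate block, and 28 to 105 with 1 library left out. For miRNA loci (23) it was 44 with the block, 37 with each class alone and 8 to 40 with 1 library left out. For protein-coding fragments (33) it was 12 with table totals, 68 with the block, 55 with each class alone and 12 to 57 with 1 library left out. For snoRNAs (1) it was 3 with TMM on miRNA loci, 2 with no filter and 3 with the block. The 8 calls in chow became 3 with DESeq2, with limma-voom and with TMM on protein-coding fragments, 5 with DESeq2 size factors in edgeR, 1 with a filter of 10 CPM, 34 with the block, 4 without overlapping genes and 2 to 10 with 1 library left out. The 2 genes whose time effect differed became 4 with DESeq2, 1 with DESeq2 size factors, 1 with TMM on protein-coding fragments, 1 without overlapping genes, 22 with the block and 0 to 13 with 1 library left out. The causes were not tested. The replicate numbers were not shown to pair livers: replicates 2 and 3 of the 3-month HFCF group deviated most like their own numbers at 1 month (correlations 0.21 and 0.092), replicate 1 most like replicate 3 (0.158). Class shares kept their sign with all genes counted. Changes of 2-fold were recovered in 19.4% of simulated cases, so genes that did not pass may have changed.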
